A study of Mus musculus with 6 samples.

Results

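Among 15643 genes counted in sorted thymic epithelial cells, 50 had at least 3 times the level in libraries labelled Aire-/- than in libraries labelled Aire+/+, and they are described here. The level was the count of unique molecular identifiers (UMIs, 1 for each captured RNA molecule) per 1000000 of the library total, CPM. The genes were chosen by these levels: a gene was taken when its mean CPM in Aire-/- was at least 3 times the mean in Aire+/+, when it had at least 30 UMIs over the Aire-/- libraries, and when its lowest Aire-/- library lay above its highest Aire+/+ library. These thresholds were met by 57 genes, of which 7 were left out by symbol. The same thresholds turned round, with Aire+/+ as the higher genotype, were met by 1549 genes. The directions were not on equal terms, because the Aire+/+ libraries held more UMIs, so that 30 UMIs is a lower level there. The numbers also depend on the scaling: with CPM scaled by TMM factors, 88 genes in place of 50 met the thresholds. Because the levels themselves chose the genes, their differences between genotypes are given as a description without a test.

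Mice of the autoimmunity-prone NOD strain, 4.5 weeks old, gave the thymi, and the cells were the mature fraction of the medullary thymic epithelium (mTEChi). There were 3 libraries of Aire-/- mice (numbers 746, 748 and 749) and 3 of Aire+/+ mice (745, 750 and 753), made by MARS-seq, which counts the 3′ ends of transcripts. No treatment is given, and the labels name neither the deleted part of Aire nor the animal behind each number, so p-values below measure the spread between these libraries. Totals were 1014581, 1960802 and 1824232 UMIs in the Aire-/- libraries, against 2736932, 2839488 and 2887321 UMIs in the Aire+/+ libraries. Aire itself had 4703, 4232 and 4589 CPM in Aire-/- and 2298, 2389 and 2525 CPM in Aire+/+. Whether the counted 3′ end lies outside the deleted part is not known, so these values do not check the genotype. The genotype is therefore taken from the labels alone. A list of 10 mature mTEC genes (Cd80, Cd86, class II genes and others) was looked at, and all were detected in every library. Their sums were 59600 to 66174 CPM in Aire-/- and 39376 to 44123 CPM in Aire+/+, mostly from H2-Aa, H2-Ab1 and Cd74. By the test described below, 6 were called higher in Aire-/- and 0 lower. Such detection does not check the cell label. All keratinocyte-like and all dendritic and myeloid markers in the table were also detected in every library. Other marker lists moved with the genotype too. Of the tested genes of each list, 6 of 8 cortical TEC markers were called higher and 0 lower. Among neuroendocrine-like markers 3 of 6 were called higher and 1 lower, and among keratinocyte-like markers 1 of 10 higher and 7 lower. In the other direction, 7 of 7 ciliated cell markers and 9 of 10 interferon response genes were called lower. Over all cell type lists, 131 genes were tested, of which 23 were called higher and 34 lower, against 8.59% and 12.1% of all genes tested. The part of these cells and programmes in the results was not tested. Libraries 746 and 753 stood apart by their Gapdh counts, 28 and 90 UMIs, against 2245 to 4166 UMIs in the other libraries. Without both, 38 of the 50 genes still met the thresholds, and 12 did not, among them Cpne2, Serpinb2, Dcn and Jph1. In such bulk samples, a larger share of cells that make a transcript and more RNA per cell cannot be told apart.

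Aire is a nuclear protein of these cells through which many tissue-restricted genes are transcribed in the thymus, so that T cells that bind their products can be removed or become regulatory cells. Loss of Aire is known mainly for the loss of such transcripts, and people who lack it develop autoimmune polyendocrine syndrome type 1. Mature mTEC also secrete cytokines and pass on to later stages that resemble cells of peripheral tissues.

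Of the 50 genes, 41 carried a gene symbol and 9 only a gene model name. They formed no single class of protein. Sorted by what their products do, a sorting made after the genes were known, 10 were secreted signals and their receptors or signalling enzymes, 6 were proteases, protease inhibitors or matrix proteins, 11 were genes of membrane, lipid or transport proteins (among them Slc22a13b, annotated as a transcribed pseudogene), 6 were proteins of nerve or muscle, 6 were nuclear or germ cell proteins, and 11 were gene models or elements without a placed role. The ratio of mean CPM ran from 3.0 to 8.23 with a median of 3.65. It lay between 3 and 4 for 30 genes, between 4 and 5 for 13, and above 5 for 7. By the annotation, 41 of the genes were protein-coding (82%, against 95.4% of all genes of the table that could be placed), 6 were long non-coding RNAs (12%, against 3.64%) and 3 were transcribed pseudogenes (6%, against 0.70%).

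The promoters of 4 of the genes, Il13, Serpinb2, Plekha4 and Uts2b, are shown because they hold at least 1 of the motifs searched and the data bear on these genes below. Each is the RefSeq sequence of GRCm38.p6 from 250 bases before to 50 bases after a start site, 5′ to 3′ on the gene's own strand, and capitals mark matches on either strand to TATAAA (the TATA box), TGANTCA (the AP-1 motif), CCAAT (the CCAAT box), or to a common NF-kappaB motif. None of these motifs contains another. The windows are chr11:53634653-53634952 (minus strand) for Il13, chr1:107511173-107511472 (plus strand) for Serpinb2, chr7:45526080-45526379 (plus strand) for Plekha4 and chr16:27370190-27370489 (minus strand) for Uts2b.
Il13: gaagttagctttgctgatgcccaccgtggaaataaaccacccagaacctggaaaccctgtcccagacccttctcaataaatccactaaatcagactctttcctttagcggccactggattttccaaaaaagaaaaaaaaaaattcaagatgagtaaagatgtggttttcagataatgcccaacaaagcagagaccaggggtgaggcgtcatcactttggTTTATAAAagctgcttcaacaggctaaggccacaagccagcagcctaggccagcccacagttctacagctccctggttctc
Serpinb2: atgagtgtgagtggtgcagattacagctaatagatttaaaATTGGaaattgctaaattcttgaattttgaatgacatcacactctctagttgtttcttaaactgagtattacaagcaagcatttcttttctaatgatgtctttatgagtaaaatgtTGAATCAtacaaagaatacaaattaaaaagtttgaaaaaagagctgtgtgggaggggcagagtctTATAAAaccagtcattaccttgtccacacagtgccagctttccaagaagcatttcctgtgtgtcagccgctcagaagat
Plekha4: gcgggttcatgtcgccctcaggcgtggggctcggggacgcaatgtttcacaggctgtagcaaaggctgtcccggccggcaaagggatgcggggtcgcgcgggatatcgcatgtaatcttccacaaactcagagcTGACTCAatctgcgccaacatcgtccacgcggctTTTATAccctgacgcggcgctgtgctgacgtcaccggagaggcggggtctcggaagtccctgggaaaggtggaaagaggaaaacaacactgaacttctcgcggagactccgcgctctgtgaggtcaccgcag
Uts2b: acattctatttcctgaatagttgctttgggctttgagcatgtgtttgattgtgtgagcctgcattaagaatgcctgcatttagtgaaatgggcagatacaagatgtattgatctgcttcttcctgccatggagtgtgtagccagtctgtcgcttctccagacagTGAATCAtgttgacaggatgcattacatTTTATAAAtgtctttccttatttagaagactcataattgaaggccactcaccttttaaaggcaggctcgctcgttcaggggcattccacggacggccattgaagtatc
The first base of a TATA match lay 29 bases before the start site in Il13 and likewise 29 bases before it in Serpinb2. The Uts2b window held TTTATAAA, which contains TATAAA on either strand, beginning 58 bases before the start, and an AP-1 match that began 86 bases before it. In Serpinb2 the AP-1 match began 94 bases before the start, and in Plekha4 it began 116 bases before it, with a TATA match on the opposite strand at 82. The Serpinb2 window also held a CCAAT match on the opposite strand, 210 bases before the start. RefSeq gives Serpinb2 and Plekha4 another start site each: from the other start of Serpinb2 the same TATA and AP-1 matches begin 116 and 181 bases before it, and the other window of Plekha4 holds neither.

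RefSeq windows were at hand for 37 of the 50 genes, which had 50 windows between them. A TATA match was found in 8 of them (16%), against 9.12% of the 15488 windows of all genes of the table, and an AP-1 match in 7 (14%), against 6.15%. Windows of 1 gene can overlap and share a match. Counted once a gene, 7 of the 37 genes had a TATA match (18.9%, against 11.0% of 12317 genes) and 6 an AP-1 match (16.2%, against 7.32%). An NF-kappaB match was found in 1 window (2%, against 0.504%) and a CCAAT match in 13 (26%, against 37.3%). The promoters were poorer in CpG than most. The ratio of observed to expected CpG had a median of 0.371 in the windows of the 50 genes and of 0.689 over all windows, and it was above 0.6 in 15 windows (30%), against 58.8% of all. Among genes called higher in Aire-/- by the test described below the share above 0.6 was 57.4%, and among genes called lower it was 28.4%. A match describes letters in a window and is not a binding site.

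The genotypes were also compared gene by gene over the whole table with edgeR's quasi-likelihood test, with TMM scaling and Benjamini-Hochberg adjustment. Of 11956 genes tested, 8.59% (1027) were called higher in Aire-/- and 12.1% (1451) lower at an adjusted p up to 0.05. Of the 50 genes, 47 passed the filter on low counts and all 47 were called higher, which the choice of the genes brings with it. Fam71b, Cd209e and the gene model Gm20556 had too few UMIs to be tested. The fitted log2 fold change of the 47 had a median of 2.07 (range 1.78 to 3.24), against -0.02 for all genes tested. Over all 15643 genes, 7.19% had every Aire-/- library above every Aire+/+ library. In the table that the authors deposited, a share of 2.28% of genes was selected as higher in Aire-/-, and all 50 genes were among them. That selection was made on the same counts, so the choice of the genes brings this overlap with it too, and it is no separate support.

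The levels of the genes covered a wide range, and the choice itself favours high levels in Aire-/-. Their mean in Aire-/- ran from 5.79 to 888 CPM with a median of 36.7 CPM, against a median of 10.7 CPM over all genes in the same libraries. In Aire+/+ their median was 9.2 CPM, against 14.3 CPM over all genes. Transcripts of all 50 were found in every Aire+/+ library, with 2 UMIs as the lowest count. In Aire-/-, 9 genes were at 100 CPM or more, 31 between 10 and 100 CPM, and 10 below 10 CPM. Together the 50 genes took 0.586%, 0.485% and 0.524% of the UMIs of the Aire-/- libraries 746, 748 and 749, and 0.144%, 0.142% and 0.138% of the UMIs of the Aire+/+ libraries 745, 750 and 753.

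**Figure D1:**
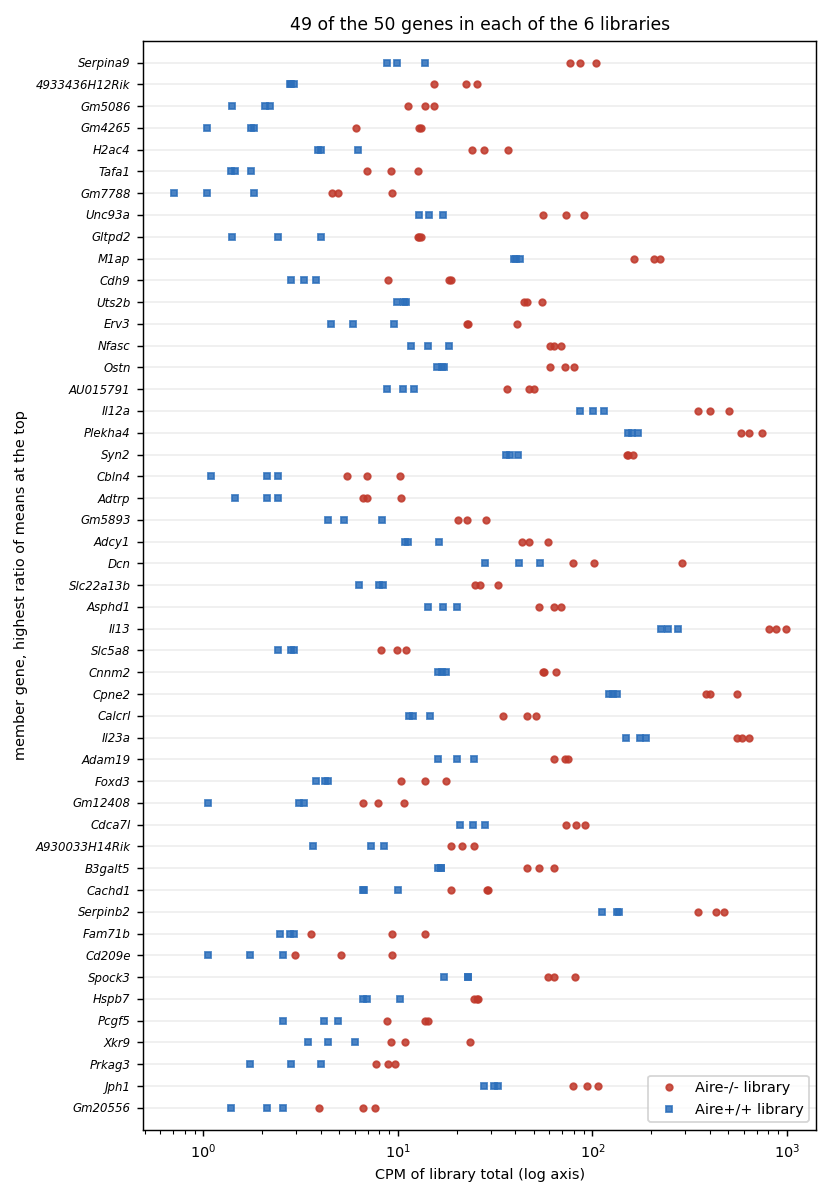
CPM of the library total (log axis) of 49 of the 50 genes, one row a gene, highest ratio of means at the top. Red circles are the 3 Aire-/- libraries and blue squares the 3 Aire+/+ libraries. The lowest red circle lies right of the highest blue square in every row, by a factor of 1.16 to 5.55, as the choice of the genes required.

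**Figure D2:**
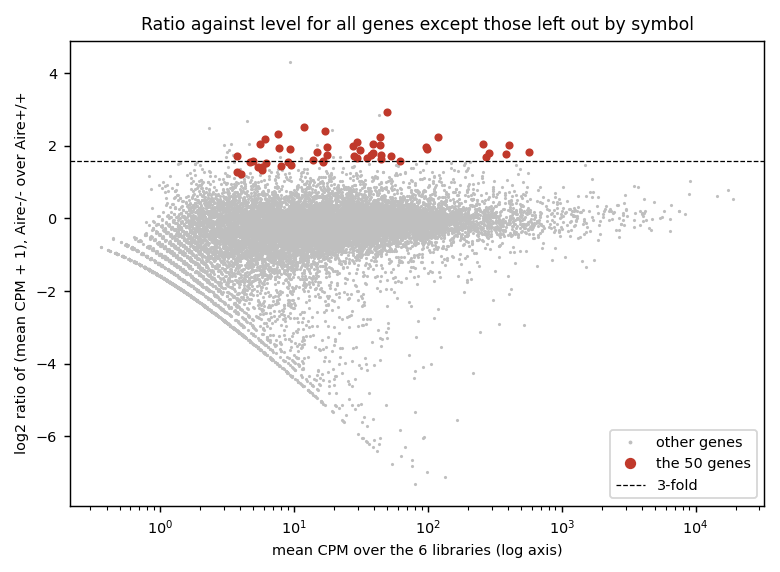
Log2 ratio of mean CPM plus 1, Aire-/- over Aire+/+, against mean CPM over the 6 libraries (log axis), for the 50 genes (red) and the other genes (grey), without the genes left out by symbol. The added 1 pulls the ratio of low genes toward 0, so some of the 50 genes lie under the dashed 3-fold line although their plain ratio is 3.0 or more. Grey points above the line had overlapping libraries or under 30 UMIs in Aire-/-, and many more grey points lie far below 0 than above it.

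Cytokine genes were among the highest in level. Il13, which encodes the type 2 cytokine interleukin-13, had 986, 875 and 805 CPM in the Aire-/- libraries 746, 748 and 749, against 274, 244 and 224 CPM in the Aire+/+ libraries 745, 750 and 753. Its mean was 888 ± 91.2 CPM in Aire-/- and 248 ± 25.1 CPM in Aire+/+ (SD, n = 3 each), which is 2.04 as a fitted log2 fold change (standard error 0.13). No other of the 50 genes had as high a mean in either genotype, and the genotypes were separated by a factor of 2.94 between the lowest Aire-/- and the highest Aire+/+ library.

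Il23a encodes the p19 subunit of interleukin-23. It had 640, 552 and 589 CPM in Aire-/-, against 175, 189 and 149 CPM in Aire+/+ (log2 fold change 1.99, standard error 0.14). Il12a encodes p35, the subunit that interleukin-12 and interleukin-35 share. It had 402, 349 and 501 CPM in Aire-/-, against 101, 85.9 and 114 CPM in Aire+/+ (log2 fold change 2.25, standard error 0.18). Library 746 was the highest of the Aire-/- libraries for Il13 and Il23a, and 749 for Il12a.

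Both p19 and p35 are secreted in pairs with a second chain, and of the genes of those chains 1 fell and the other was not called. Il12b, which encodes the p40 chain of interleukins 12 and 23, had 0, 8 and 3 UMIs in Aire-/- and 78, 50 and 92 UMIs in Aire+/+. It fell, with 1.91 ± 2.05 CPM in Aire-/- and 26.0 ± 7.45 CPM in Aire+/+ (SD, n = 3 each; log2 fold change -3.30 ± 0.49 SE, edgeR adjusted p = 0.00033). Ebi3, which encodes the partner of p35 in interleukin-35, was not called, with 112 ± 22.5 CPM in Aire-/- and 96.8 ± 15.4 CPM in Aire+/+ (log2 fold change 0.40, edgeR adjusted p = 0.138, and 0.0353 without library 748). Il27, which encodes the p28 chain that pairs with Ebi3, was not called, with 68.1 ± 21.6 CPM in Aire-/- and 66.0 ± 8.99 CPM in Aire+/+ (log2 fold change 0.20, edgeR adjusted p = 0.557). The genes of both chains that pair with p40 were thus high in the libraries in which the gene of p40 was low. The data hold transcript counts and no protein.

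Il13 also differed from Il4 and Il5 beside it on chromosome 11, though not from every neighbour. Il5, another type 2 cytokine gene 86.1 kb away, had 4, 0 and 0 UMIs in Aire-/-, against 71, 67 and 53 UMIs in Aire+/+, and fell (log2 fold change -4.45 ± 0.65 SE, edgeR adjusted p = 0.000294). Il4, 12.7 kb from Il13, had 1, 3 and 9 UMIs in Aire-/- and 22, 21 and 20 UMIs in Aire+/+, and its log2 fold change of -1.25 missed the threshold (edgeR adjusted p = 0.0862), which it passed without library 749 (adjusted p = 0.0116) and with library totals in place of TMM (adjusted p = 0.0397). Rad50, a DNA repair gene 14.8 kb away on the other side, rose, with 147 ± 18.2 CPM in Aire-/- and 71.8 ± 1.37 CPM in Aire+/+ (log2 fold change 1.24, edgeR adjusted p = 6.12e-05). The 3 type 2 cytokine genes of the locus were not alike: Il13 stood higher in every Aire-/- library, while Il4 and Il5 had lower CPM in every Aire-/- library than in any Aire+/+ library, as did 33.5% of all 15643 genes.

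**Figure D3:**
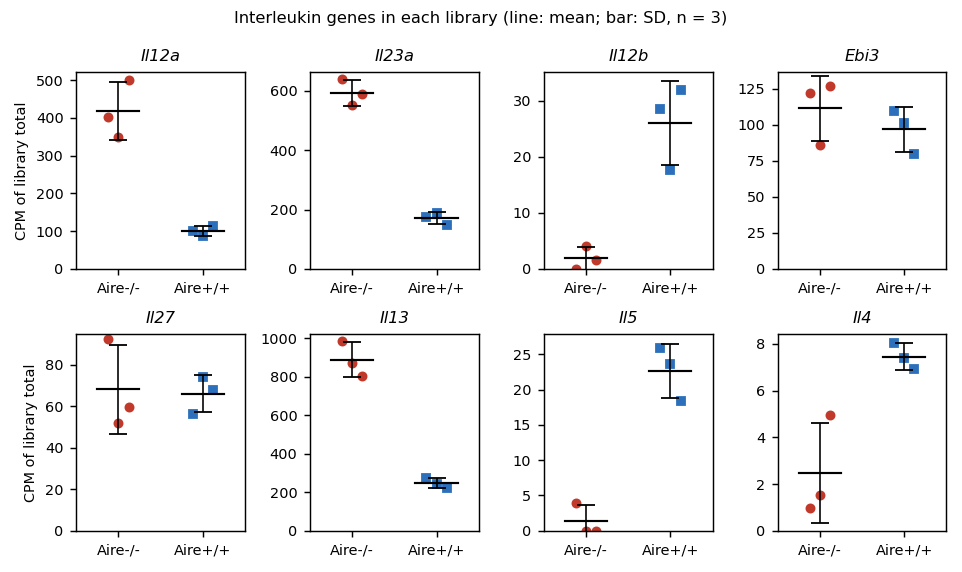
CPM of the library total (linear axes from 0, one scale a panel) of 8 interleukin genes in Aire-/- (red circles, left) and Aire+/+ (blue squares, right), 1 point a library, with the mean as a line and the SD over 3 libraries as a bar. Il12a, Il23a and Il13 lie higher in Aire-/-, Il12b, Il5 and Il4 lie lower, and the libraries of Ebi3 and Il27 overlap.

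Calcrl encodes the receptor that, with accessory RAMP proteins, binds calcitonin gene-related peptide (CGRP) and adrenomedullin. It had 34.5, 45.9 and 51.5 CPM in Aire-/-, against 14.6, 11.97 and 11.4 CPM in Aire+/+. Among its partners, Ramp2 fell to 7, 0 and 5 UMIs in Aire-/-, against 56, 50 and 47 UMIs in Aire+/+ (log2 fold change -2.58 ± 0.56 SE, edgeR adjusted p = 0.00474). Ramp1, which makes the CGRP receptor with Calcrl, had too few UMIs to be tested (0, 8 and 4 in Aire-/-, against 4, 4 and 2 in Aire+/+). Ramp3 rose, with 73.1 ± 10.8 CPM in Aire-/- and 52.1 ± 2.42 CPM in Aire+/+ (log2 fold change 0.70, edgeR adjusted p = 0.00851, and 0.0543 without library 745). The genes of the 2 CGRP peptides moved in opposite directions. Calca was at 98.8 ± 25.6 CPM in Aire-/- and 319 ± 6.52 CPM in Aire+/+ (log2 fold change -1.51, edgeR adjusted p = 5.29e-05), and Calcb at 849 ± 59.7 CPM in Aire-/- and 491 ± 51.3 CPM in Aire+/+ (log2 fold change 0.98, edgeR adjusted p = 0.000344).

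Other signals were peptides and small secreted proteins. Ostn encodes osteocrin, a peptide of bone and muscle, and Uts2b encodes urotensin 2B, a vasoactive peptide. The pair lie 2113 bases apart on chromosome 16 (Ostn at positions 27307641 to 27351209 on the plus strand, Uts2b at 27353322 to 27370239 on the minus strand), with their 3′ ends facing each other. Ostn had 80.8, 60.2 and 71.8 CPM in Aire-/-, against 16.8, 15.9 and 17.3 CPM in Aire+/+ (ratio 4.26). Uts2b had 55.2, 44.4 and 46.0 CPM in Aire-/-, against 11.0, 9.86 and 10.7 CPM in Aire+/+ (ratio 4.61). They are the only 2 of the 50 genes within 200 kb of one another, and in both, library 746 was highest and 748 lowest among the Aire-/- libraries. Ccdc50, the next gene beside Uts2b, rose less (95.8 CPM in Aire-/- and 54.9 CPM in Aire+/+, log2 fold change 1.01, edgeR adjusted p = 0.000331).

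Tafa1, a chemokine-like protein secreted in the brain, had 7, 18 and 23 UMIs in Aire-/-, against 4, 5 and 4 UMIs in Aire+/+, a ratio of mean CPM of 6.23. Cbln4, a synapse-organising protein of the cerebellin family, had a ratio of 4.01 from a mean of 7.53 CPM in Aire-/- and 1.88 CPM in Aire+/+. Both rest on few UMIs: neither reached 60 UMIs over the Aire-/- libraries, and without library 749 neither met the thresholds. Adcy1, a calcium-stimulated adenylyl cyclase, was at 49.95 ± 8.25 CPM in Aire-/- and 12.8 ± 2.98 CPM in Aire+/+. Cd209e, a C-type lectin of the DC-SIGN family, had 3, 10 and 17 UMIs in Aire-/-, against 7, 3 and 5 UMIs in Aire+/+, a ratio of 3.25 that failed the thresholds in 4 of 6 repeats that each left out 1 library. Its relatives Cd209d, 17.5 kb away, and Cd209a, 99.0 kb away, were called higher (log2 fold changes 1.47 and 1.38, edgeR adjusted p = 0.0111 and 0.00684).

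Protease inhibitors included the largest ratio of all. Serpina9, a serpin known from germinal centre B cells in humans, had 76.9, 86.7 and 104 CPM in Aire-/-, against 9.87, 8.80 and 13.9 CPM in Aire+/+. The ratio of its means was 8.23, the fitted log2 fold change was 3.24 (standard error 0.22), and the lowest Aire-/- library was 5.55 times the highest Aire+/+ library. Of the other germinal centre B cell markers, none of the 3 tested was called in either direction, and of 8 B cell markers tested 0 were called higher and 1 lower. Serpina9 lies in the cluster of serpin A genes on chromosome 12, of which 7 others were tested: 0 were called higher and 2 lower. The adjacent Serpina11 fell, with 7.04 CPM in Aire-/- and 23.2 CPM in Aire+/+ (log2 fold change -1.55, edgeR adjusted p = 0.0021).

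Serpinb2 encodes plasminogen activator inhibitor 2. It had 476, 347 and 430 CPM in Aire-/-, against 137, 133 and 113 CPM in Aire+/+. The last 300 nt of its transcript matched Serpinb10 at 100% over 238 nt, so the authors' counting could have moved reads between them, yet Serpinb10 held only 1.53 CPM in Aire-/- and 2.98 CPM in Aire+/+. Plat, the tissue plasminogen activator that it inhibits, rose as well, with 124 ± 26.5 CPM in Aire-/- and 57.6 ± 9.22 CPM in Aire+/+ (log2 fold change 1.27, edgeR adjusted p = 0.000239). Plau, the other activator that it inhibits, had too few UMIs to be tested (3 in Aire-/- and 16 in Aire+/+), and the activator's receptor gene Plaur was not called (8.47 CPM in Aire-/- and 11.3 CPM in Aire+/+).

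Adam19, a membrane-bound metalloprotease, had a mean of 69.8 CPM in Aire-/- and 20.3 CPM in Aire+/+. Only 6 other ADAM genes were picked for comparison. Of these 3 were called higher and 0 lower, against 8.59% and 12.1% of all genes tested. Adam12 had the largest fitted change (log2 fold change 1.42, edgeR adjusted p = 0.000157), and those of Adam8 and Adam17 were small (0.42 and 0.48). Spock3, a proteoglycan of the testican family, was at 68.0 ± 12.01 CPM in Aire-/- and 21.0 ± 3.28 CPM in Aire+/+. Dcn, the matrix proteoglycan decorin made by fibroblasts, had the widest coefficient of variation over the Aire-/- libraries, 73.5%. It had 290, 79.6 and 102 CPM in Aire-/- libraries 746, 748 and 749, against 53.7, 28.2 and 41.9 CPM in Aire+/+. Library 746 was 3.64 times library 748, and without library 746 Dcn no longer met the thresholds.

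Of the 5 other fibroblast and mural cell markers in the table, library 746 was the highest for Col1a2 and Col3a1, but not for Col1a1, Pdgfrb or Rgs5. Col3a1, a fibrillar collagen gene, had 190, 69 and 14 UMIs in Aire-/-, against 43, 22 and 17 UMIs in Aire+/+ (log2 fold change 3.01, edgeR adjusted p = 0.016, and 0.0589, 0.0652 and 0.0655 without library 746, 750 or 753, and 0.231 without both 746 and 753). Of 8 genes in that marker list 6 were in the table and 5 were tested: Dcn and Col3a1 were called higher and Rgs5, a pericyte marker, lower (log2 fold change -1.11). The summed level of the 6 genes was 687, 252 and 204 CPM in Aire-/- libraries 746, 748 and 749, against 320, 247 and 283 CPM in Aire+/+. Rgs5 alone gave 90.7, 79.0 and 64.7 CPM of this in Aire-/- and 203, 175 and 195 CPM in Aire+/+. The sum, which includes Dcn, thus mixes markers that moved in opposite directions. None of the 6 markers was at 0 in any library. Their part in the Dcn difference was not tested.

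**Figure D4:**
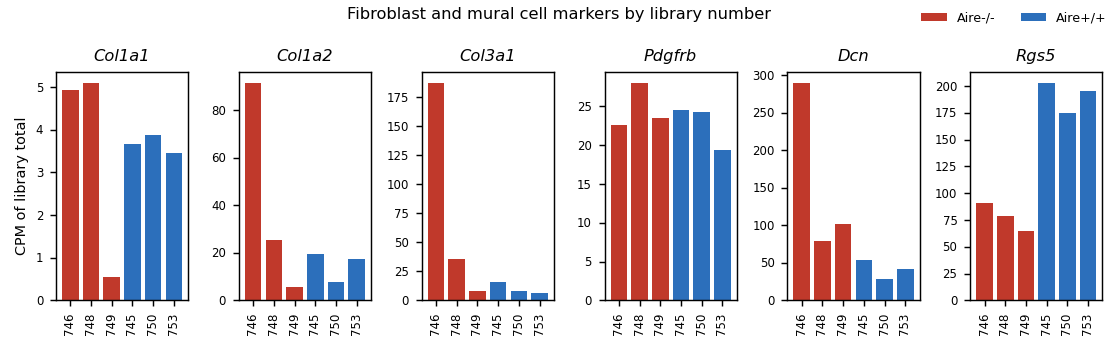
CPM of the library total (linear axes from 0, one scale a panel) of the 6 fibroblast and mural cell markers in the table, one bar a library, Aire-/- libraries in red on the left and Aire+/+ libraries in blue on the right, named by their numbers. Library 746 has the highest bar for Dcn (290 CPM), Col1a2 and Col3a1, and Rgs5 is lower in all Aire-/- libraries.

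Membrane and lipid proteins formed the largest named group. Plekha4, a protein that binds phosphoinositides through a pleckstrin homology domain, came next to Il13 in level, with 742, 636 and 579 CPM in Aire-/-, against 153, 170 and 159 CPM in Aire+/+. Cpne2, a calcium-dependent phospholipid-binding copine, had 553, 381 and 401 CPM in Aire-/-, against 127, 134 and 122 CPM in Aire+/+. In both, library 746 was the highest, and the Aire+/+ libraries lay close together.

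Unc93a, a membrane protein of the UNC93 family, had 90.7, 72.9 and 55.4 CPM in Aire-/-, against 12.8, 14.4 and 17.0 CPM in Aire+/+ (ratio 4.95), and its 3′ end was 98% identical over 300 nt to that of the annotated copy Unc93a2. Gltpd2, which carries a glycolipid transfer domain, had 12.8, 12.7 and 13.2 CPM in Aire-/-, against 4.02, 1.41 and 2.42 CPM in Aire+/+ (ratio 4.93). Its Aire-/- libraries were the closest of the 50 genes, with a coefficient of variation of 1.69%. This rests on 13, 25 and 24 UMIs, too few for such a value to measure how much the gene varies. Adtrp, the galactosyltransferase gene B3galt5, the monocarboxylate transporter Slc5a8, the magnesium transport gene Cnnm2, Cachd1, Xkr9 and Slc22a13b had ratios between 3.15 and 3.99. The 3′ ends of Adtrp and B3galt5 resemble those of other annotated transcripts, so their counts may hold reads of others.

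Proteins of nerve and muscle numbered 6. Syn2, a synapsin of synaptic vesicles, had 151, 161 and 153 CPM in Aire-/-, against 41.6, 37.7 and 36.0 CPM in Aire+/+ (ratio 4.03, log2 fold change 2.21, standard error 0.14). Syn1, the other synapsin gene in the table, was at 1.02 CPM in Aire-/- and 5.65 CPM in Aire+/+ and fell (log2 fold change -2.19, edgeR adjusted p = 0.0103), a call that was lost without library 749 (adjusted p = 0.0514) and by DESeq2's Wald test (adjusted p = 0.0702). Nfasc, neurofascin of the nodes of Ranvier, had 60.1, 68.8 and 63.0 CPM in Aire-/-, against 14.3, 11.6 and 18.4 CPM in Aire+/+ (ratio 4.34). The synaptic cadherin Cdh9 had 9, 36 and 34 UMIs in Aire-/-, against 9, 8 and 11 UMIs in Aire+/+ (ratio 4.63).

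Of the muscle genes, Jph1, which encodes a junctophilin that ties the plasma membrane to the sarcoplasmic reticulum, had 106, 93.3 and 78.9 CPM in Aire-/-, against 27.8, 31.3 and 32.6 CPM in Aire+/+. Jph2, its relative of the heart, was at 0.511 CPM in Aire-/-, and 6.01 CPM in Aire+/+, and fell (edgeR adjusted p = 0.00252). Its 2 UMIs in Aire-/- against 51 in Aire+/+ give a depth-scaled ratio of 0.0692 (95% exact Clopper-Pearson interval 0.00815 to 0.263, counting error only). Hspb7, a small heat shock protein of the heart, was at 25.3 ± 0.705 CPM in Aire-/- and 7.91 ± 2.01 CPM in Aire+/+. Prkag3, the AMP-activated kinase subunit of skeletal muscle, was at 8.75 CPM in Aire-/- and 2.86 CPM in Aire+/+.

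Nuclear and germ cell proteins included H2ac4, a histone H2A gene expressed in S phase, with 27.6, 23.97 and 36.7 CPM in Aire-/-, against 4.02, 3.87 and 6.23 CPM in Aire+/+ (ratio 6.25). Its level is uncertain, because 23 other annotated transcripts, most of them histone H2A genes, matched its 3′ end at 90% identity or more. Of the other 7 replication-dependent histone genes tested 1 was called higher and 0 lower, and of 8 cell cycle genes tested 0 were called higher and 1 lower. M1ap, a meiosis protein of the testis, had 208, 163 and 221 CPM in Aire-/-, against 39.5, 40.5 and 42.6 CPM in Aire+/+ (ratio 4.84). Foxd3, a transcription factor of neural crest and pluripotent cells, was at 14.0 ± 3.67 CPM in Aire-/- and 4.14 ± 0.297 CPM in Aire+/+. Cdca7l, Pcgf5 (a Polycomb group protein) and Fam71b had ratios between 3.16 and 3.36. Fam71b had 14, 7 and 17 UMIs in Aire-/-, against 8, 7 and 8 UMIs in Aire+/+, and its Aire-/- libraries differed by a factor of 3.87, the widest of the 50 genes.

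Among genes without a placed role, the models 4933436H12Rik, Gm5086 and Gm4265 had ratios of 7.45, 7.11 and 6.94, behind Serpina9 alone. 4933436H12Rik had 26, 30 and 41 UMIs in Aire-/-, against 8, 8 and 8 UMIs in Aire+/+. The other 6 models, Gm7788, AU015791, Gm5893, Gm12408, A930033H14Rik and Gm20556, had ratios between 3.0 and 5.28. The 3′ end of Gm5893 matched that of Gm29918 at 99.4% over 159 nt, so its count may hold reads of the other. Erv3, an endogenous retroviral sequence, had 22.7, 22.9 and 41.1 CPM in Aire-/-, against 5.85, 9.51 and 4.50 CPM in Aire+/+ (ratio 4.37), with library 749 the highest. Asphd1, which carries an aspartate beta-hydroxylase domain, was at 61.5 ± 7.85 CPM in Aire-/- and 17.1 ± 2.91 CPM in Aire+/+. Its 3′ end resembles those of 155 other annotated transcripts, so its count may hold reads of others.

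The 3 genes nearest above the threshold were Gm20556 (ratio 3.0), Jph1 (3.04) and Prkag3 (3.06). The nearest below it that met the other conditions were Pla1a (2.97), Kcnj3 (2.97) and Mir142 (2.95). Another 21 genes failed only on the number of UMIs and 10 only because their libraries overlapped, and 163 genes that met the other conditions had a ratio between 2 and 3.

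The coefficient of variation over the Aire-/- libraries had a median of 17.0% for the 50 genes and of 24.1% for the 12887 genes with at least 41 UMIs in all, the lowest total among the 50. Over the Aire+/+ libraries it was 16.5% for the 50 genes and 14.8% for those genes. These genes were not matched to the 50 in level, and the non-overlap that the choice required limits the spread of the 50. Library 749 was the highest Aire-/- library for 25 of the genes, 746 for 16 and 748 for 9, and library 748 was the lowest for 27. In percent, 749 was highest for 50% of them, 746 for 32% and 748 for 18%, against 30.4%, 39.4% and 30.2% of the 12887 genes, and 748 was lowest for 54% of them, against 24.4%. With each library left out in turn, 30 of the genes met the thresholds every time and 20 failed at least once, among them Jph1, Foxd3, Spock3, Xkr9 and Slc5a8. The 30 included Il12a, Il13, Il23a, Plekha4, Serpina9, Serpinb2, M1ap, Syn2, Ostn and Uts2b.

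The genes were spread over 18 chromosomes. Genes beside them that were not themselves among the 50 were looked at in the same comparison. Their own levels played no part in the choice of the 50. Of 128 tested genes within 100 kb, 31 (24.2%) were called higher and 13 (10.2%) lower, against 8.59% and 12.1% of all genes tested. Between 100 and 500 kb away, 42 of 447 (9.40%) were called higher and 52 (11.6%) lower. Of the 36 genes with a tested neighbour within 100 kb, 19 had one that was called higher and 10 one that was called lower. Neighbours do not make independent observations, and 10 of the 31 lay beside Plekha4. Without the neighbours of Plekha4, 21 of 112 (18.8%) were called higher.

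**Figure D5:**
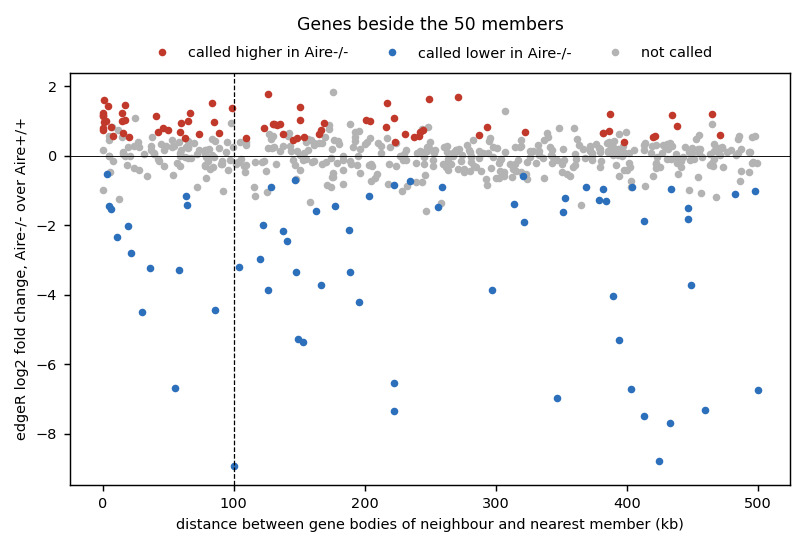
Log2 fold change from edgeR, Aire-/- over Aire+/+, of tested genes that are not among the 50, against the distance in kb between the gene body and the nearest of the 50. Red points were called higher in Aire-/-, blue points lower and grey points neither. Within 100 kb (left of the dashed line) 24.2% of the points are red, and between 100 and 500 kb 9.40%.

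Plekha4 lies at positions 45526330 to 45554229 of chromosome 7. Of the 16 tested genes within 100 kb of it, 10 were called higher and 0 lower. Ppp1r15a, a stress-induced phosphatase subunit whose gene lies 62 bases from that of Plekha4, was at 419 CPM in Aire-/- and 205 CPM in Aire+/+ (log2 fold change 1.22, edgeR adjusted p = 2.58e-05). The others called were Hsd17b14, Tulp2, Bcat2, Nucb1, Bax, Fgf21, Ftl1, Rasip1 and Mamstr, and none of their fitted changes reached that of Plekha4 (log2 fold change 2.21, standard error 0.14). Asphd1 overlaps the annotated gene of Kctd13 at its own 3′ end, so the pair may share reads, and it lies 913 bases from Sez6l2. Kctd13 and Sez6l2 rose by log2 fold changes of 1.18 (edgeR adjusted p = 4.19e-05) and 1.60 (edgeR adjusted p = 8.39e-06). The other 9 tested genes within 100 kb of Asphd1 were not called.

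At other places the neighbours moved the other way. Slc22a13b had 27.9 ± 4.02 CPM in Aire-/- and 7.57 ± 1.09 CPM in Aire+/+, whereas 3 of 5 tested genes within 100 kb were called lower and 1 higher. One of the 3 was Slc22a14, with 1 UMI over the Aire-/- libraries against 56 over the Aire+/+ libraries, a depth-scaled ratio of 0.0315 (95% exact Clopper-Pearson interval 0.000783 to 0.183; edgeR adjusted p = 0.000976). As annotated in GENCODE, Slc22a14 spans the whole of Slc22a13b, its 3′ end included, whereas by RefSeq positions the pair lie 30.1 kb apart. The strand of Slc22a13b was not at hand. The strand setting of the counts is not given in the sources used here, so under the GENCODE annotation reads of the pair cannot be told apart. Nor can reads be told apart for A930033H14Rik, whose 3′ end is overlapped by Rhobtb1 on the opposite strand. Rhobtb1 was called higher (log2 fold change 1.13, edgeR adjusted p = 0.00307). In all, 21 of the 50 genes were overlapped by another annotated gene, and the share over all genes was not counted. The overlap took in the 3′ end of A930033H14Rik, Asphd1, Cdca7l, Jph1 and Slc22a13b. For Gm7788 the strand was not at hand, so whether the overlap lies at its 3′ end is unknown.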

How the data were processed

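Raw UMI counts per gene symbol, as the authors deposited them, were taken for 6 MARS-seq libraries, 3 Aire-/- and 3 Aire+/+. Per the file headers, the authors also deposited log2 fold changes (Aire+/+ over Aire-/-), adjusted p-values and a selection of genes, of which the selection alone is printed. STAR 2.4.2a, HTSeq, DESeq2, cutadapt, bcl2fastq and the build mm10 stand in the submitters' processing notes. Strand, UMI and multi-mapping settings: not given in the sources used here.

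CPM were counts per 1000000 of the library total, and means are given ± SD over 3 libraries. The test of genotype used edgeR 4.0.16 under R 4.3.3 (glmQLFit, glmQLFTest, TMM, filterByExpr with min.count 10, genotype as the only term, Benjamini-Hochberg over 11956 genes), tested on simulated data. A standard error is the log2 fold change over the root of F. DESeq2 1.42.0, other scalings, no filter and leaving out libraries were alternatives. Library totals of 1014581 to 2887321 UMIs set the precision, and intervals cover counting error only. Replicates differed beyond sampling noise (chi-square per degree of freedom 3.02 to 6.83) and each counted as 1.

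Positions (15578 of 15643 symbols) and promoter windows come from RefSeq GRCm38.p6, the build mm10 names, and overlaps and transcript ends from GENCODE. The last 300 nt were compared with all transcripts by blastn 2.17.0 (at least 80 nt at 90% identity). Motifs were searched on both strands.

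The 50 genes, the gene lists, the related genes and the groups by role were chosen with earlier results of these data known. By rule, library values are given for the 12 named genes of highest ratio, the 10 of highest Aire-/- level, the 3 of widest Aire-/- range, list members and pairs within 200 kb. Other named genes were chosen after their values were seen. Of the 50 genes, 1 is counted but not reported here by name.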

Additional observations from a re-analysis of the deposited data

How the results depend on the processing

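The number of genes that met the thresholds was 88 with CPM scaled by TMM factors and 87 with DESeq2 size factors, in place of 50, and all 50 were among them in both. It was 62 with at least 15 UMIs, 38 with at least 60 UMIs, and 48 to 61 with 1 library left out. The number of genes called higher was 1027, against 561 with library totals alone and 651 without libraries 746 and 753, and it ran from 618 to 1156 with 1 library left out (632 without 745, 618 without 753). Genes called lower numbered 1451, and 1099 to 1899 with 1 library left out. With library totals alone, the median log2 fold change of all genes moved by -0.21, with 561 higher and 2083 lower calls. DESeq2's Wald test gave 829 higher and 1531 lower. Of the 50 genes, 47 to 50 were called higher under the alternatives, which their choice on the same counts brings with it, with a median log2 fold change of 1.87 to 2.17, and Gm12408 missed the threshold without library 748 (edgeR adjusted p = 0.0518). Of 131 cell type markers tested, 23 were called higher (15 without libraries 746 and 753, 15 to 26 with 1 library left out) and 34 lower (33 to 46 with 1 library left out). Neighbours called higher numbered 31, and 22 to 33 over all alternatives. Neighbours called lower numbered 13, 20 without a filter on low counts, and 9 to 19 with 1 library left out. Il27, at a log2 fold change of 0.20, ranged from -0.025 (without library 746) to 0.38 (without 748) with 1 library left out. The cause of these shifts was not tested, apart from the fewer samples or the changed filter itself. Genes under about 10 CPM rest on few UMIs. No paired analysis was possible because the library numbers differ between the genotypes.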
